A study of Mus musculus with 16 samples.

Results

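The respiratory chain and the ATP synthase of the mitochondrial inner membrane were followed through their nuclear genes in primordial germ cells (PGCs) of mouse embryos, from which sperm and eggs later form. Members were all genes whose symbols name a subunit of complexes I to IV or of the ATP synthase in both expression tables, which gave 91 of 26219 genes, and 87 of these reached 5 RPM (reads per 1000000 gene-assigned reads, not divided by gene length) in at least 2 wild-type libraries. Complexes were assigned by symbol alone, so Ndufa4 is counted and summed with complex I, whichever complex its protein belongs to. By symbol, the 87 comprised 37 complex I, 4 complex II, 9 complex III, 15 complex IV and 15 ATP synthase genes. There were also 4 complex I assembly factors of the Ndufaf series, and Atp5s and Atp5sl, which carry an ATP synthase name. The last, Cox4nb, matched the name rule only: RefSeq names it Emc8, a subunit of the endoplasmic reticulum membrane protein complex, and it overlaps Cox4i1 on the opposite strand. Mitochondrially encoded subunits were not analysed here.

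Expression was measured by 3′ RNA sequencing of bulk sorted cells in 16 libraries of 6 groups. The floxed set, on a C57BL/6 background at E11.5 (embryonic day), held 4 control libraries of genotype Prdm1(flox/flox); Rosa26(neo-EYFP/+) and 4 libraries labelled CKO (conditional knockout), which carried Dppa3-MCMP(Tg/0) as well. Prdm1, also called Blimp1, encodes a transcriptional repressor needed for PGC specification, Dppa3 is a gene active in germ cells, and the pregnant females of both groups had received 3 mg 4-OHT (4-hydroxytamoxifen) per 25 g body weight at 10.5 dpc. The wild-type set, of strain ICR:C57BL/6=1:1 and genotype Dppa3(EGFP/+), held 2 libraries each from E10.5, from E11.5, from E13.5 males and from E13.5 females, made from 1 ng RNA. No sex is given for the libraries before E13.5, and no pooling or embryo number for any, so that p-values reflect only how far these libraries lie apart, part of which may be technical. The protocols name gonad dissociation, a sort for EYFP and a sort with an SSEA-1 antibody, without tying either sort to a group.

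Depth was 1485000 to 5032000 reads per library, so that 3 reads correspond to 0.596 to 2.02 RPM, a limit that covers counting error only. Of the 87 members, 23 have a transcript end with a near-identical copy elsewhere and 39 overlap another annotated gene, so their reads may be shared. All 9 germ cell markers were at 5 RPM or more in every library. Summed levels of 10 gonadal somatic markers were 250.2 RPM in CKO-labelled replicate 4, 101 RPM in CKO-labelled replicate 1 and 4.66 to 72.0 RPM in the other libraries. Prdm1 lay between 50.7 and 73.0 RPM in the controls and between 76.6 and 89.4 RPM in the CKO-labelled libraries. The 3′ reads need not fall in the deleted part, so these levels do not check the deletion and the libraries are called CKO-labelled throughout.

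Complex I (NADH dehydrogenase) and complex II (succinate dehydrogenase) feed electrons into ubiquinone, complex III passes them to cytochrome c, and complex IV (cytochrome c oxidase) hands them to oxygen. Complexes I, III and IV pump protons, and the ATP synthase uses the gradient to make ATP. Several complex IV subunits and the ATP synthase c subunit are encoded by paralogues, some of which are known for expression in muscle, in hypoxia or in the testis. Nuclear respiratory chain genes are classically linked to the transcription factors NRF1, GABPA (an ETS factor) and YY1.

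Promoters of 3 members are printed because these members, picked after their values were seen, differed in the comparisons below and hold core motifs of these factors. RefSeq windows on GRCm38.p6, from 250 bases before to 50 after the annotated start, were found for 73 of the 87 members. In the sequences, written 5′ to 3′ on the gene's strand, capitals mark matches on either strand. Ndufs8 lies on the minus strand at chr19:3912725-3913024 and its capitals are ETS matches.
Ndufs8: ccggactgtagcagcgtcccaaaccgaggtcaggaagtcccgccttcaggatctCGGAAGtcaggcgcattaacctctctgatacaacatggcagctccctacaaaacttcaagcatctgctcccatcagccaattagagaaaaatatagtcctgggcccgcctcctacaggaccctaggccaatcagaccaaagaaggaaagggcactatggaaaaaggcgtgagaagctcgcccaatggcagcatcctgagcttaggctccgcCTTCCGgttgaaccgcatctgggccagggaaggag
Uqcrc1 lies on the plus strand at chr9:108936398-108936697 and its capitals are a pair of overlapping NRF1 matches, one on each strand.
Uqcrc1: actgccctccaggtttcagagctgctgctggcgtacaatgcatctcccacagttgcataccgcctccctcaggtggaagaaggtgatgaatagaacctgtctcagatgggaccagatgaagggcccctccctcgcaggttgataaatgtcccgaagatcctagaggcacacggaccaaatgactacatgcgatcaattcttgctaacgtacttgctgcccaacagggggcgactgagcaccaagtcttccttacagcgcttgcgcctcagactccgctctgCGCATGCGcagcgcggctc
Atp5f1, named Atp5pb in RefSeq, lies on the minus strand at chr3:105959214-105959513, and its capitals are an ETS match followed by a YY1 match.
Atp5f1: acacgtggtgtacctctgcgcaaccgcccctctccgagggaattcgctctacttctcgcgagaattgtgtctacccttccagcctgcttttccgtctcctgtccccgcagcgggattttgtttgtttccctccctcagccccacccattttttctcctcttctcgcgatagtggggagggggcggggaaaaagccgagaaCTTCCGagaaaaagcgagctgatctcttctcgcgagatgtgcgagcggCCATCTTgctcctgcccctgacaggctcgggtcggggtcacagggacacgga

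The NRF1 core GCATGCG occurred on either strand in a window of 12 of the 73 members (16.4%) and of 4.01% of 27025 genes, where a gene may have more than 1 window. The ETS core CGGAAG occurred for 30 members (41.1%) and for 18.8% of all genes. The YY1 core AAGATGG occurred for 12 members (16.4%) and for 7.28% of all genes. The 27025 genes are all those with a window, whether or not they were expressed here, whereas the members passed a level filter. The shares were not compared among expressed genes. These counts are descriptions of letters in a window and say nothing of binding.

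Summed over the 87 members, the 2 floxed groups differed little, while both E10.5 libraries lay below every later wild-type library. The control sum was 27949 ± 345 RPM (SD, n = 4) and the CKO-labelled sum 28083 ± 387 RPM (n = 4), with overlapping libraries. In wild-type cells it was 26177 ± 473 RPM at E10.5 and then 29056 ± 421 RPM at E11.5, 29512 ± 723 RPM in E13.5 males and 30443 ± 725 RPM in E13.5 females (n = 2 each). The complexes did not move alike after E11.5. The complex II sum was 697 and 649 RPM at E11.5, 807 and 754 RPM in E13.5 males and 939 and 954 RPM in E13.5 females, and no library of one group reached into the next. The complex IV sum was 8177 and 8115 RPM at E11.5, 7317 and 7202 RPM in E13.5 males and 8003 and 8328 RPM in E13.5 females, so males lay below the E11.5 and the female libraries. The ATP synthase sum was 9365 and 9418 RPM at E10.5, below the 10139 to 10606 RPM of the 6 later wild-type libraries. In bulk RNA, fewer cells of a type and less RNA per cell cannot be told apart.

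**Figure D1:**
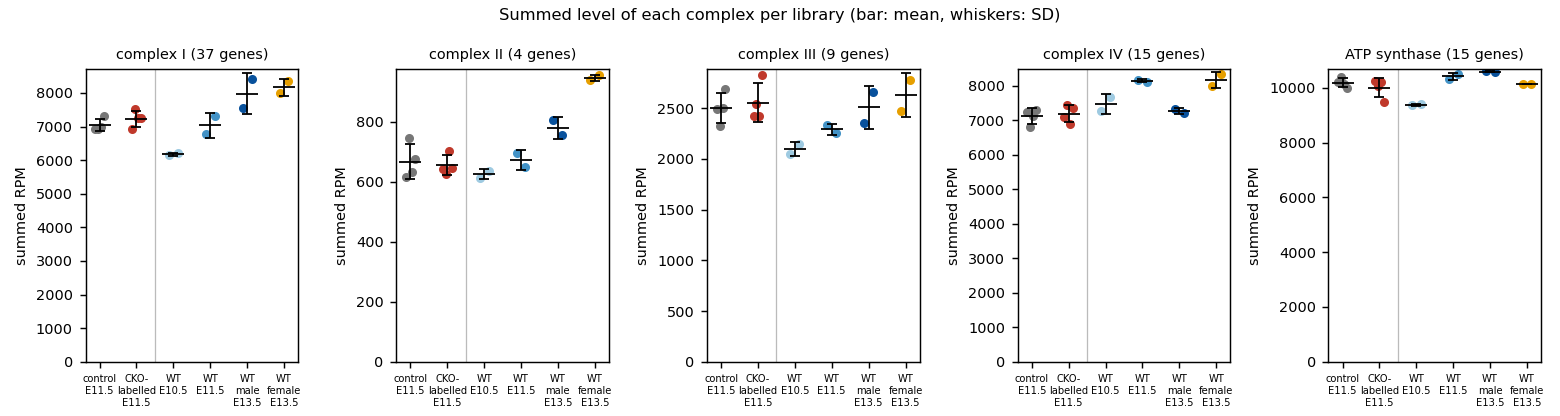
Summed RPM of each complex's genes, assigned by symbol, in each library (points, coloured by group), with the group mean (bar) and SD (whiskers). The grey line parts the floxed from the wild-type libraries, whose tables were normalized separately. Control and CKO-labelled libraries overlap in every panel, and complex II is highest in the E13.5 females at 939 and 954 RPM.

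Across the 4 wild-type groups, the highest group mean was under 1.5 times the lowest for 47 of 87 members (54.0%) and for 26.4% of the 10749 genes tested. It was at least 2 times the lowest for 11 members (12.6%) and for 45.6% of all genes. The median of this ratio was 1.46 for members and 1.90 for all genes. Members lay at higher levels, as 82 of 87 members and 7510 of 10749 genes passed a filter at 20 RPM. The ratios were not compared at matched levels. Among the members that varied least were Ndufb5, an accessory complex I subunit, with a ratio of 1.08, and Cox6b2, a complex IV paralogue known from the testis, with 1.15. Atp5f1, Ndufa5, Ndufa6, Ndufs5, Ndufa1, Ndufaf3, Cox7a1, Cox7b2, Cox8c, Sdhd and Atp5s were the 11 members at 2 times or more, and among them Cox7b2, Cox8c, Sdhd and Atp5s were below 5 RPM in at least 1 wild-type library.

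The first comparison set CKO-labelled against control PGCs at E11.5. Ndufs8 was the single member called, and it was higher in the CKO-labelled cells. It encodes a core complex I subunit with iron-sulfur clusters that pass electrons toward ubiquinone, and the gene spans chr19:3908863-3912774. Its level was 54.7, 61.9, 55.2 and 62.7 RPM in the controls and 81.7, 101, 102 and 87.6 RPM in the CKO-labelled libraries. The groups did not overlap, and every CKO-labelled library lay above every control. On the log2(RPM + 1) scale, on which all fold changes here are given and which understates changes of low genes, the difference was 0.66 ± 0.11 (SE, limma adjusted p = 0.00646). The wild-type E11.5 libraries, in the other table, held 86.2 and 109.9 RPM. The 3 pre-granulosa markers summed to 0.883, 2.78, 0.657 and 2.59 RPM in the controls and to 8.59, 4.77, 8.32 and 8.94 RPM in the CKO-labelled libraries, also without overlap. Of these, Foxl2 was at 0 in all 4 controls and in CKO-labelled replicates 3 and 4. Their part in the Ndufs8 difference was not tested.

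Thus 1 of 85 tested members (1.18%) was called, where 2.43% of the 9384 genes tested were called, 1.93% as higher and 0.501% as lower. Without adjustment, 3 members were higher and 2 lower at p under 0.05, where 593 and 532 of the 9384 genes were. The median member change was 0.06 and the median of all genes -0.01, and 83 members (97.6%) lay within 1.5-fold against 94.7% of all genes. Libraries of the groups did not overlap for 3 members, Ndufs8, Cox7a1 and Cox7b2, which is 3 of 85 where 8.19% of all genes did not overlap. The Ndufs8 call held in all 16 alternatives, with adjusted p up to 0.0432, also when control replicate 1 and CKO-labelled replicate 4 were both left out.

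Cox7a1, the complex IV isoform known from heart and skeletal muscle, had the largest estimated difference. It was at 9.71, 19.5, 15.1 and 19.8 RPM in the controls and at 27.2, 26.6, 23.0 and 25.0 RPM in the CKO-labelled libraries. The groups did not overlap, but the difference of 0.68 ± 0.21 did not pass over all genes (limma adjusted p = 0.136). The catalytic β subunit of the ATP synthase, Atp5b, had 2753 ± 117 RPM without and 2718 ± 205 RPM with the CKO label (SD, n = 4 each), with overlapping libraries. Cyc1, the cytochrome c1 of complex III, was at 297 ± 23.9 and 293 ± 42.3 RPM, and Sdha, the flavoprotein of complex II, at 300.4 ± 24.7 and 283 ± 24.6 RPM.

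**Figure D2:**
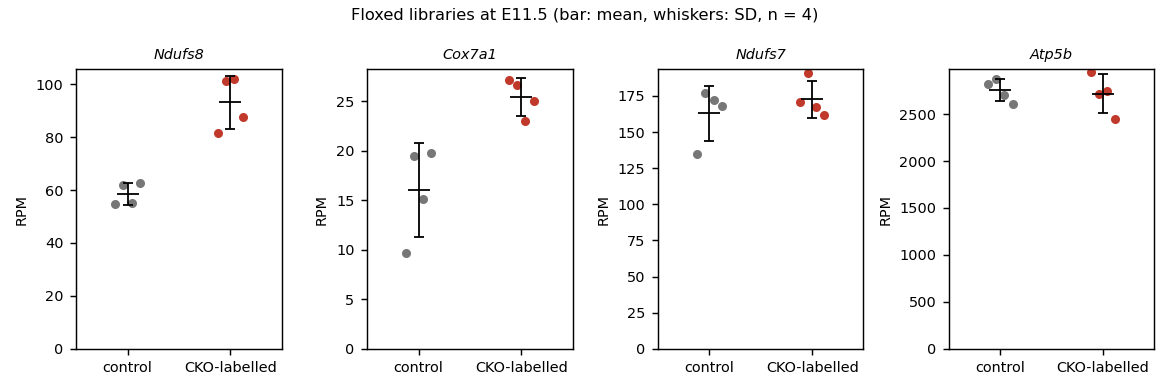
RPM of 4 members in the floxed libraries (points), with group means (bars) and SD (whiskers), n = 4 per group, on linear axes from 0. Ndufs8 and Cox7a1 libraries do not overlap between groups, whereas those of Ndufs7, an iron-sulfur core subunit of complex I, and of Atp5b do.

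Around the chain, 13 tricarboxylic acid (TCA) cycle genes, 20 tested assembly factors outside the name rule, 7 tested carriers and regulators of the ATP synthase, and 12 tested transcriptional regulators gave 0 calls in this comparison by limma. Unadjusted p was under 0.05 for 1 assembly factor (lower), 1 carrier and 1 regulator (both higher), and for 0 TCA cycle genes. Their median changes lay between -0.04 and 0.06.

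The next comparison followed wild-type PGCs from E10.5 to E11.5. Of the 87 members, 74 had a positive and 13 a negative estimate, and 5 passed, all higher at E11.5 (5.75%, where 4.28% of all 10749 genes were called, 2.31% as higher and 1.97% as lower). Over all genes 5609 estimates were positive and 5125 negative. Without adjustment 27 members were higher and 0 lower at p under 0.05, where 1114 and 943 of all genes were. The median member change was 0.17, and that of all genes 0.02. Libraries of the 2 stages did not overlap for 55 members, where 46.2% of all genes did not overlap.

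The called members came from complexes I and IV and the ATP synthase. Atp5o encodes the OSCP subunit of the ATP synthase stalk. Its level was 498 and 461 RPM in the earlier and 626 and 642 RPM in the later libraries, a difference of 0.40 ± 0.09 (limma adjusted p = 0.00574). Cox7b2, a paralogue of the complex IV gene Cox7b, stood at 4.51 and 4.80 RPM first and at 11.4 and 19.9 RPM a day later (1.51 ± 0.36, limma adjusted p = 0.0126). In both genes each E11.5 library lay above each E10.5 library, while Cox7b2 stood on few reads.

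The 3 complex I genes were Ndufb10, Ndufs7 and Ndufb11. Ndufb10, an accessory subunit of the membrane arm, stood at 84.9 and 77.5 RPM first and at 111 and 128 RPM a day later (0.55 ± 0.14, limma adjusted p = 0.0169). Ndufs7, the iron-sulfur subunit next to the ubiquinone site, was at 150.3 and 147 RPM and then 183 and 223 RPM (0.44 ± 0.11, limma adjusted p = 0.023). Ndufb11, another membrane arm subunit, was at 225 and 202 RPM and then 242 and 346 RPM (0.44 ± 0.12, limma adjusted p = 0.0362). E11.5 replicate 2 was the higher E11.5 library for Ndufb10, Ndufs7, Ndufb11 and Cox7b2, and also for Atp5o, at 642 against 626 RPM. The transcripts of Atp5o and Ndufb11 share their last bases with near-identical copies elsewhere in the genome, so reads may have been split or merged.

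These calls were sensitive to single libraries. The count was 1 without E10.5 replicate 1, 0 without E10.5 replicate 2, 7 without E11.5 replicate 1 and 2 without E11.5 replicate 2, and 0 of the 5 calls held in every alternative. Erythroid markers, of which 7 of 9 were in the table, summed to 247 and 227 RPM in the earlier libraries and 16.8 and 6.26 RPM in the later ones, with Alas2 at 0 in all 4 libraries, and the 10 gonadal somatic markers summed to 56.4 and 63.4 RPM and then 6.06 and 7.12 RPM. The part of these cells in the result was not tested. Of the surrounding lists, 1 of 13 TCA cycle genes passed, the malate dehydrogenase gene Mdh2, with 529 ± 37.2 RPM before and 659 ± 59.9 RPM after (SD, n = 2 each, 0.31 ± 0.09, limma adjusted p = 0.0407). The assembly factors, carriers and regulators gave 0 calls by limma, with 2, 0 and 2 genes higher and 0, 2 and 1 lower at an unadjusted p under 0.05.

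From E11.5 to E13.5, taking the mean of both sexes, 32 members rose and 17 fell (56.3%), where 29% of all genes tested were called higher and 18.8% lower, 47.9% in all. The 32 include Sdhd and Cox8c, which passed the level filter only through the E13.5 libraries, and without both 30 of 85 members rose. The median member change was 0.12 and that of all genes 0.11. Under median-ratio scaling, which moved the median of all genes to 0.02, the members split into 22 higher and 22 lower, and 0 called members changed the sign of their estimate. Of the 49 calls, 20 held in each alternative, 13 higher, with Cox8c among them, and 7 lower. This comparison shares the E11.5 libraries with the one before, so their calls are not set against each other. Without one library at a time, 21 to 35 members were called higher and 13 to 17 lower. Libraries of the 2 stages did not overlap for 39 members, where 44.3% of all genes did not overlap. The lowest count of higher calls, 21, was that without E13.5 male replicate 2. Marker sums moved too. The 3 mesonephric epithelium markers summed to 16.8 and 14.5 RPM at E11.5 and to 0 to 1.37 RPM at E13.5, with Pax2 and Cdh16 at 0 in all 4 E13.5 libraries. The 9 germ cell markers summed to 5179 and 5118 RPM at E11.5, to 9467 and 9046 RPM in E13.5 males and to 5817 and 5646 RPM in E13.5 females. The 5 endothelial markers summed to 119.9 and 111 RPM at E11.5, where only 2 of them were at 5 RPM or more in each library. Their part in the result was not tested.

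In complex I, 17 of 37 genes were higher at E13.5 and 2 lower (51.4%, where 47.9% of all genes were called). Under median-ratio scaling 11 were higher and 3 lower. Ndufs1, the largest core subunit, which carries iron-sulfur clusters near the NADH site, was at 119 and 108 RPM at E11.5, at 176 and 187 RPM in E13.5 males and at 201 and 210 RPM in E13.5 females. Each E13.5 library lay above both E11.5 libraries (0.76 ± 0.10, limma adjusted p = 5.95e-07). The gene overlaps Eef1b2 on the opposite strand, and strand use in the counting is not given in the sources used here. Ndufc1, a small membrane arm subunit, was at 107 and 101 RPM, then at 149 and 186 RPM in males and 129 and 175 RPM in females (0.60 ± 0.12, limma adjusted p = 0.000239), and its transcript end has a near-identical copy. Ndufa2, Ndufb8 and Ndufv2 were the other complex I genes whose calls held in each alternative, with changes of 0.47, 0.39 and 0.41. Ndufb8 was at 260 and 271 RPM at E11.5, 312 and 273 RPM in males and 426 and 401 RPM in females, so its rise stood mostly on the females. Gm20538 overlaps Ndufb8 on the same strand, and Ndufa2 and Ndufv2 overlap genes on the opposite strand. Ndufb7 was at 126 and 140 RPM at E11.5, 86.8 and 94.7 RPM in males and 136 and 128 RPM in females. Its females thus overlapped E11.5, and only its males lay below. Ndufa11 (-0.24) and Ndufb7 (-0.28) were the lower pair, both accessory subunits. Without E11.5 replicate 2 their adjusted p was 0.143 and 0.238, and other single libraries also ended the calls, with adjusted p of 0.0515 to 0.104 for Ndufa11 (E11.5 replicate 1, male replicate 2 or female replicate 2) and of 0.0579 to 0.107 for Ndufb7 (male replicate 1 or either female replicate).

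Of the 4 complex I assembly factors 1 rose and 1 fell (50%, where 47.9% of all genes were called). Ndufaf1, which works on the membrane arm, was at 42.4 and 49.5 RPM at E11.5 and at 64.6 to 82.8 RPM in the 4 E13.5 libraries (0.66 ± 0.15, limma adjusted p = 0.000764). Ndufaf3 was at 31.7 and 39.0 RPM at E11.5 and at 9.02, 19.4, 19.9 and 20.3 RPM at E13.5 (-1.06 ± 0.23, limma adjusted p = 0.00043). Neither gene's E13.5 libraries overlapped its E11.5 libraries, and both calls held in each alternative. Ndufaf3 overlaps Impdh2 on the opposite strand. Ndufaf2 and Ndufaf4 did not pass.

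In complex II, Sdha, Sdhb and Sdhc were called higher at E13.5, Sdhb and Sdhc also under median-ratio scaling, where Sdha did not pass. Sdhb, the iron-sulfur subunit, was at 242 and 234 RPM at E11.5, at 270.2 and 272 RPM in males and at 358 and 337 RPM in females (0.37 ± 0.09, limma adjusted p = 0.000998). Sdhc, a membrane anchor, was at 183 and 199 RPM, then at 270.2 and 231 RPM in males and 254 and 255 RPM in females (0.40 ± 0.09, limma adjusted p = 0.000974). In both genes every E13.5 library was above every E11.5 library. Sdha was at 269 and 214 RPM, then at 259.8 and 244 RPM in males and 324 and 353 RPM in females (0.28 ± 0.10, limma adjusted p = 0.0165), and males overlapped E11.5. Its adjusted p was 0.414 without E11.5 replicate 2 and 0.0646 without E13.5 female replicate 2. Sdhd, the other anchor, was at 2.69 and 1.99 RPM and then 3.55 to 9.32 RPM. It passed the level filter only through the E13.5 libraries, so its call supports nothing.

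Complex III had 3 genes higher and 2 lower (55.6%, where 47.9% of all genes were called). Under median-ratio scaling 2 were higher and 3 lower. Cyc1 was at 298 and 319 RPM at E11.5 and at 348 to 525 RPM at E13.5 (0.45 ± 0.08, limma adjusted p = 5.98e-05). Uqcrb, a small subunit, was at 248 and 263 RPM and then 306 to 473 RPM (0.63 ± 0.12, limma adjusted p = 5.82e-05), though its transcript end has near-identical copies. Both calls held in each alternative. Uqcrc1, a core subunit, was higher by 0.37 (SE 0.12, limma adjusted p = 0.0114). Uqcrc1 males, at 109.9 and 141.9 RPM, overlapped E11.5 at 110.4 and 116 RPM, while its females were at 187 and 157 RPM. Its adjusted p was 0.0600 under median-ratio scaling, 0.0738 without E11.5 replicate 1, 0.0639 without male replicate 2 and 0.0647 without female replicate 1. Uqcr10 (-0.41 ± 0.11, limma adjusted p = 0.00348) and Uqcrq (-0.29 ± 0.09, limma adjusted p = 0.0101) were lower. Both E13.5 female libraries of each lay below the E11.5 libraries, while the males overlapped them, and Uqcrq had adjusted p 0.100 without E11.5 replicate 1.

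Complex IV had 5 genes higher, Cox8c among them, and 5 lower, or 4 and 6 under median-ratio scaling. The share called was 66.7%, or 64.3% without Cox8c, where 47.9% of all genes were called. Cox8a, a small accessory subunit, was at 1148 and 1031 RPM at E11.5, at 824 and 801 RPM in males and at 579 and 737 RPM in females (-0.58 ± 0.09, limma adjusted p = 6.21e-06). Cox6a1 fell by 0.37 (SE 0.07, limma adjusted p = 0.000131) and Cox6b1 fell by 0.38 (SE 0.08, limma adjusted p = 0.000187), and for these 3 accessory subunits each E13.5 library lay below both E11.5 libraries. Cox7c rose by 0.42 (SE 0.07, limma adjusted p = 3.6e-05), from 959 and 888 RPM to 1136 to 1400 RPM. Its transcript end has near-identical copies.

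In the ATP synthase 2 of 15 genes were higher and 5 lower (46.7%, where 47.9% of all genes were called). Under median-ratio scaling 1 was higher and 7 lower. Atp5f1, the b subunit of the stalk that holds the catalytic head still, was at 616 and 561 RPM at E11.5, at 719 and 687 RPM in males and at 1195 and 1089 RPM in females (0.61 ± 0.08, limma adjusted p = 2.54e-07). Atp5l, the g subunit of the membrane part, was at 529 and 485 RPM and then 352 to 421 RPM (-0.42 ± 0.08, limma adjusted p = 0.000107), and Atp5k, the e subunit, was at 112 and 107 RPM and then 69.8 to 88.7 RPM (-0.47 ± 0.12, limma adjusted p = 0.00163). The groups did not overlap for any of the 3 genes. Near-identical copies exist for the transcript ends of Atp5f1 and Atp5l, and Wdr77 overlaps Atp5f1 on the opposite strand. The central stalk gene Atp5d had the largest fall, from 33.7 and 26.5 RPM to 15.8 to 19.7 RPM (-0.74 ± 0.21, limma adjusted p = 0.00538), with adjusted p 0.0815 without E11.5 replicate 1. Cox4nb, no subunit, fell by 0.73 (SE 0.12, limma adjusted p = 9.68e-06).

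Among the surrounding lists, 5 of 13 TCA cycle genes rose and 1 fell (46.2%, where 47.9% of all genes were called). Of the 5, Idh3g had means of 252 RPM at E11.5, 207 RPM in E13.5 males and 447 RPM in E13.5 females. Ogdh had 78.9, 82.5 and 140 RPM, so both rises stood on the females. Dld, the dihydrolipoamide dehydrogenase, rose by 1.03 (SE 0.15, limma adjusted p = 1.56e-06), Sucla2, a succinyl-CoA ligase subunit, by 0.62 (SE 0.12, adjusted p = 7.34e-05), and Idh3b, an isocitrate dehydrogenase subunit, fell by 0.67 (SE 0.10, adjusted p = 7.44e-06). Of 7 tested carriers and ATP synthase regulators 0 were higher and 3 lower (42.9%). These were the ADP/ATP carrier genes Slc25a4 and Slc25a5 and the uncoupling protein gene Ucp2. Slc25a5 was at 1002 ± 82.0 RPM at E11.5 (SD, n = 2) and 369 ± 34.3 RPM at E13.5 (n = 4), a change of -1.44 ± 0.08 (limma adjusted p = 1.31e-13), and Slc25a4 went from 1400 ± 60.7 to 726 ± 185 RPM (-0.98 ± 0.08, limma adjusted p = 3.79e-11). Of 21 tested assembly factors 4 were higher and 1 lower (23.8%). Of 12 regulators (16.7% called), Nrf1 was higher (0.72 ± 0.21, limma adjusted p = 0.0054). Esrra, a nuclear receptor of mitochondrial genes, was lower in the mean of both sexes (-0.71 ± 0.24, limma adjusted p = 0.0183). It had 26.7 ± 7.31 RPM at E11.5, 7.49 ± 2.63 RPM in E13.5 males and 33.0 ± 7.13 RPM in E13.5 females (SD, n = 2 each). Only the male mean was thus below E11.5.

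**Figure D3:**
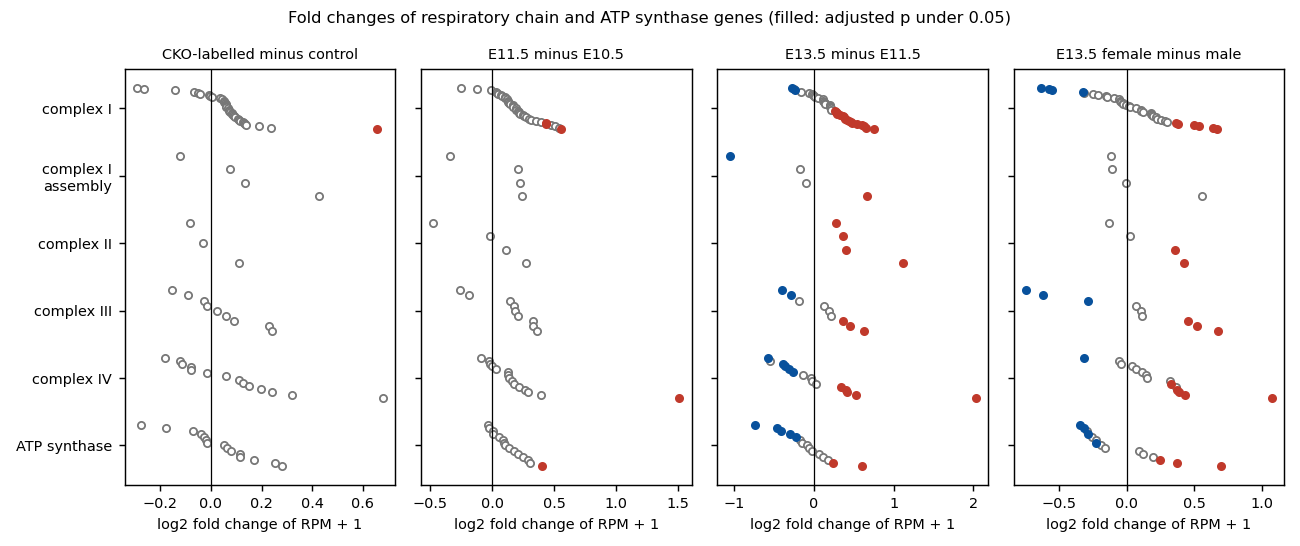
Log2 fold change of RPM + 1 for each subunit gene and complex I assembly factor (points, ordered by value within each row) in the 4 comparisons, with separate horizontal axes. Filled points passed limma at an adjusted p under 0.05, red for higher and blue for lower. A single filled point, Ndufs8, stands in the CKO-labelled panel, whereas the E13.5 panels hold filled points on both sides in complexes I, III and IV and in the ATP synthase.

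At E13.5, germ cells of the 2 sexes are at the start of different paths, with female cells entering meiosis and male cells approaching mitotic arrest. Female cells had 19 members higher and 12 lower than male cells (35.6%, where 21.2% of all genes were called higher and 16.4% lower, 37.6% in all). The median member difference was 0.07 and that of all genes 0.05. Of the 31 calls, 11 held in each alternative. The counts were 13 to 21 higher and 7 to 13 lower with one library left out, and the 7 lower calls were those without female replicate 1. Under median-ratio scaling 18 were higher and 15 lower. Libraries did not overlap for 51 members, where 71.1% of all genes did not overlap. Summed Sertoli markers, 4 genes, were 24.0 and 16.2 RPM in the male libraries, with Amh at 0, and 0 in the female libraries. The 5 endothelial markers summed to 59.4 and 58.5 RPM in males and 115 and 121 RPM in females. Each E13.5 library held only 1 of these 5 at 5 RPM or more, with Cdh5 and Kdr at 0 in both female libraries. Erythroid markers summed to 5.01 and 7.04 RPM in males and to 31.2 and 37.6 RPM in females, the 10 gonadal somatic markers to 15.4 and 15.8 RPM and to 5.02 and 4.66 RPM, and the germ cell markers were higher in males, as given above. Their part in the differences was not tested.

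Of the 9 complex III genes, 3 were called higher in females and 3 lower (66.7%, where 37.6% of all genes were called). The 3 genes higher in females encode the core subunits Uqcrc1 and Uqcrc2 and cytochrome c1, and the 3 lower genes encode the small subunits Uqcrq and Uqcr10 and the Rieske iron-sulfur protein Uqcrfs1. Uqcrc2 was at 199 and 172 RPM in males and at 291 and 303 RPM in females (0.68 ± 0.11, limma adjusted p = 2.26e-05). Cyc1 was at 358 and 348 RPM in males and at 489.6 and 525 RPM in females (0.52 ± 0.10, limma adjusted p = 8.62e-05). Females were above males in both libraries of each.

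Uqcrq, which helps form the ubiquinone binding site, was at 277 and 314 RPM in males and at 174 and 176 RPM in females (-0.75 ± 0.10, limma adjusted p = 1.89e-06). Uqcr10 was at 199 and 222 RPM in males and at 115 and 161 RPM in females (-0.62 ± 0.13, limma adjusted p = 0.000302). These 2 genes, Uqcrc2 and Cyc1 kept their calls in each alternative. Uqcrc1 (0.46 ± 0.14, limma adjusted p = 0.00901) had adjusted p 0.201 without male replicate 1 and 0.173 without female replicate 1. Uqcrfs1 (-0.29 ± 0.11, limma adjusted p = 0.0332) had adjusted p 0.277 without male replicate 1, 0.188 without female replicate 1 and 0.0817 without female replicate 2. The other 3 genes, Uqcrb, Uqcrh and Uqcr11, did not pass, and their libraries are shown in the plot of complex III genes. No near-identical copy was found for the transcript ends of the 6 called genes, and Pdzd9 overlaps Uqcrc2 on the opposite strand.

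**Figure D4:**
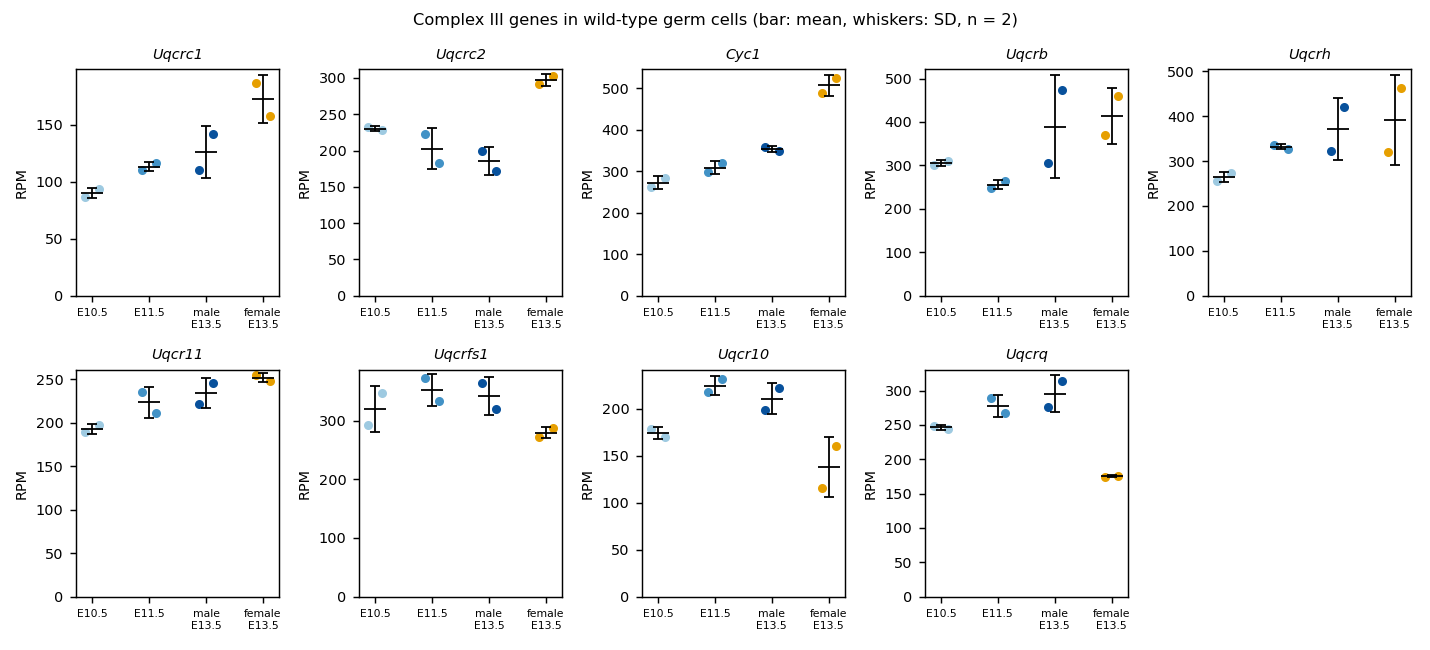
RPM of the 9 complex III genes in wild-type PGCs (points are libraries, bars means, whiskers SD, n = 2 per group) on linear axes from 0. Uqcrc1, Uqcrc2 and Cyc1 are highest in E13.5 females, whereas Uqcrfs1, Uqcr10 and Uqcrq are lowest there, with Uqcrq at 174 and 176 RPM.

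In complex I, 6 genes were higher and 4 lower in females (27.0%, where 37.6% of all genes were called). Ndufb11 was at 226 and 233 RPM in males and at 383 and 351 RPM in females (0.67 ± 0.12, limma adjusted p = 7.64e-05). Ndufb8 differed by 0.50 (SE 0.10, limma adjusted p = 0.000291) and Ndufb7 by 0.54 (SE 0.13, limma adjusted p = 0.00121), so all 3 are accessory subunits of the membrane arm. Lower in females were Ndufa7, an accessory subunit of the NADH module, at 688 and 751 RPM in males and 466 and 460.5 RPM in females (-0.63 ± 0.09, limma adjusted p = 4.62e-06), and Ndufv3 of the same module, at 159 and 179 RPM and 109.5 and 117 RPM (-0.57 ± 0.13, limma adjusted p = 0.000659). None of these 5 genes overlapped between sexes, and their calls held in each alternative. Near-identical copies exist for the transcript ends of Ndufb11 and Ndufa7.

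Genes of the ATP synthase also went in both directions, with 3 of 15 higher in females and 4 lower (46.7%, where 37.6% of all genes were called). Atp5f1, spanning chr3:105942698-105959263, was higher in females, with the levels given above (0.70 ± 0.09, limma adjusted p = 4.15e-07), and its call held in each alternative. Atp5b, the catalytic β subunit, was at 2873 and 2892 RPM in males and at 2289 and 2336 RPM in females (-0.32 ± 0.07, limma adjusted p = 0.00103). The 3 c subunit paralogues encode the same mature protein, and 2 of them were called in opposite directions. Atp5g3 was at 969.9 and 963 RPM in males and at 1263 and 1243 RPM in females (0.37 ± 0.08, limma adjusted p = 0.000468), and Atp5g1 at 1547 and 1439 RPM in males and at 1196 and 1154 RPM in females (-0.34 ± 0.09, limma adjusted p = 0.00235). Atp5g2 was at 589.8 and 473 RPM in males and at 584 and 562 RPM in females, so the sexes overlapped, and it did not pass. Without a variance trend in limma, Atp5b, Atp5g3 and Atp5g1 had adjusted p of 0.108, 0.0731 and 0.133. The transcript end of Atp5g1 has a near-identical copy.

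In complex II, Sdha (0.42 ± 0.11, limma adjusted p = 0.00321) and Sdhb (0.36 ± 0.10, limma adjusted p = 0.00566) were higher in females. The first had adjusted p 0.0627 without female replicate 2 and the other 0.0810 without female replicate 1. Sdhc was at 251 ± 27.7 RPM in males and 255 ± 0.837 RPM in females (SD, n = 2 each) and did not pass.

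In complex IV, 5 genes were higher in females and 1 lower (40%, where 37.6% of all genes were called). Cox7a1, spanning chr7:30184171-30186030, was at 17.7 and 24.7 RPM in males and at 42.6 and 48.0 RPM in females, the largest sex difference among the members at 1.08 ± 0.24 (limma adjusted p = 0.000823), and its call held in each alternative. Cox4i1 was at 526 and 567 RPM in males and 761 and 717 RPM in females (0.43 ± 0.09, limma adjusted p = 0.000421). Cox5a, a subunit on the matrix side, was at 1046 and 961 RPM in males and 1320 and 1297 RPM in females (0.38 ± 0.08, limma adjusted p = 0.000365). Without a variance trend these 2 had adjusted p of 0.0683 and 0.0692. Cox8a was lower in females (-0.32 ± 0.10, limma adjusted p = 0.0173), with adjusted p 0.415 without female replicate 1, 0.0883 without male replicate 1 and 0.0554 without male replicate 2.

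The 3 members on the X chromosome, Ndufb11, Ndufa1 and Cox7b, were all called higher in females, where 54.9% of the 408 X-linked genes tested and 20.1% of the 9988 autosomal genes were. Of the 84 autosomal members 19.0% were called higher. Ndufa1, an accessory subunit of complex I, was at 63.5 and 125 RPM in males and at 114 and 170.2 RPM in females, so the sexes overlapped (0.64 ± 0.22, limma adjusted p = 0.0205), and its adjusted p was 0.646 without male replicate 1 and 0.348 without female replicate 2. Cox7b was at 736 and 613 RPM in males and 821 and 918 RPM in females (0.37 ± 0.09, limma adjusted p = 0.00201), with adjusted p 0.0857 without male replicate 2 and 0.0643 without female replicate 2. The median difference of the X-linked genes was 0.69 and that of these 3 members 0.64.

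Of the TCA cycle genes, 6 of 13 were higher in females and 0 lower (46.2%, where 37.6% of all genes were called). Idh3g, an isocitrate dehydrogenase subunit, was at 207 ± 32.2 RPM in males and 447 ± 23.8 RPM in females (SD, n = 2 each, 1.11 ± 0.12, limma adjusted p = 1.73e-08). Fh1, fumarate hydratase, differed by 0.65 (SE 0.11, limma adjusted p = 2.02e-05). Of 21 assembly factors 1 was higher and 1 lower (9.52%). Of 7 carriers and ATP synthase regulators (57.1% called) 1 was higher, Ucp2 (1.47 ± 0.14, limma adjusted p = 1.67e-09). The 3 lower ones included Slc25a4 (-0.60 ± 0.09, limma adjusted p = 4.19e-06). Of 12 regulators 3 were higher and 4 lower (58.3%). Esrra was at 7.49 ± 2.63 RPM in males and 33.0 ± 7.13 RPM in females (2.02 ± 0.28, limma adjusted p = 1.82e-06), and the mitochondrial DNA polymerase gene Polg was higher by 0.83 (SE 0.15, adjusted p = 7.92e-05). Yy1 was at 91.4 ± 2.70 RPM in males and 52.0 ± 2.18 RPM in females (-0.80 ± 0.15, limma adjusted p = 8.18e-05).

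The paralogues of tissue-restricted subunits were followed in every group. Cox4i2, Cox6a2 and Cox8b, known from lung and hypoxia or from muscle, were listed at 0 in all 16 libraries. Ndufa4l2, known as a hypoxia-responsive gene, was listed at 0 in the 4 wild-type libraries of E10.5 and E11.5 and was at 3.34 and 0.352 RPM in E13.5 males and 2.30 and 4.39 RPM in E13.5 females, the highest value of a member that was not kept. Its partner Ndufa4 was at 439 to 507 RPM as a group mean in wild-type cells and passed in none of the comparisons. Cox6a1, the partner of Cox6a2, had 909 ± 30.4 RPM without and 983 ± 50.3 RPM with the CKO label (SD, n = 4 each). These libraries overlapped, and the difference of 0.11 ± 0.08 did not pass (limma adjusted p = 0.638).

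Cox8c, a testis paralogue of Cox8a, was at 0.903 and 0.640 RPM at E10.5, then at 1.35 and 0.285 RPM a day later, at 6.68 and 4.23 RPM in E13.5 males and at 6.48 and 7.40 RPM in E13.5 females. The values up to E11.5 were below the level of 3 reads in each library, and each E13.5 library was above it. It passed the level filter only through the E13.5 libraries. In the floxed set it was at 2.85 to 4.95 RPM in the controls and at 0.596 to 2.09 RPM in the CKO-labelled libraries. These groups did not overlap, but the values stand on few reads and were not tested. Cox6b2 was at 103 ± 8.01 RPM at E10.5, 114 ± 5.65 RPM at E11.5, 107 ± 3.75 RPM in E13.5 males and 119 ± 18.0 RPM in E13.5 females (SD, n = 2 each) and passed in none of the 3 wild-type comparisons, while Cox6b1 went from 697 ± 16.6 RPM at E10.5 through 656 ± 60.5 RPM a day later to 496 ± 20.8 RPM in E13.5 males and 509 ± 0.957 RPM in E13.5 females (SD, n = 2 each).

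Within the Cox7a family the members differed in course. Cox7a2l, known for joining complexes III and IV into supercomplexes, was at 387 and 439.6 RPM at E11.5 and at 492 to 545 RPM at E13.5 (0.34 ± 0.08, limma adjusted p = 0.000974), with no overlap. Cox7a2 was at 179.8 and 175 RPM and then 128 to 155 RPM (-0.31 ± 0.11, limma adjusted p = 0.0218), and had adjusted p of 0.0647 to 0.107 without E11.5 replicate 1, E11.5 replicate 2, E13.5 male replicate 1 or E13.5 female replicate 1. Cox7a1 was at 22.9 and 19.4 RPM at E11.5 and rose by limma at E13.5 (0.53 ± 0.21, adjusted p = 0.0389), but males overlapped E11.5, and its adjusted p was 0.0647 to 0.205 without E11.5 replicate 2, male replicate 2 or either female replicate. Cox7b2 was at 9.35 and 8.10 RPM in E13.5 males and 9.41 and 14.0 RPM in E13.5 females and did not pass between those stages or sexes.

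**Figure D5:**
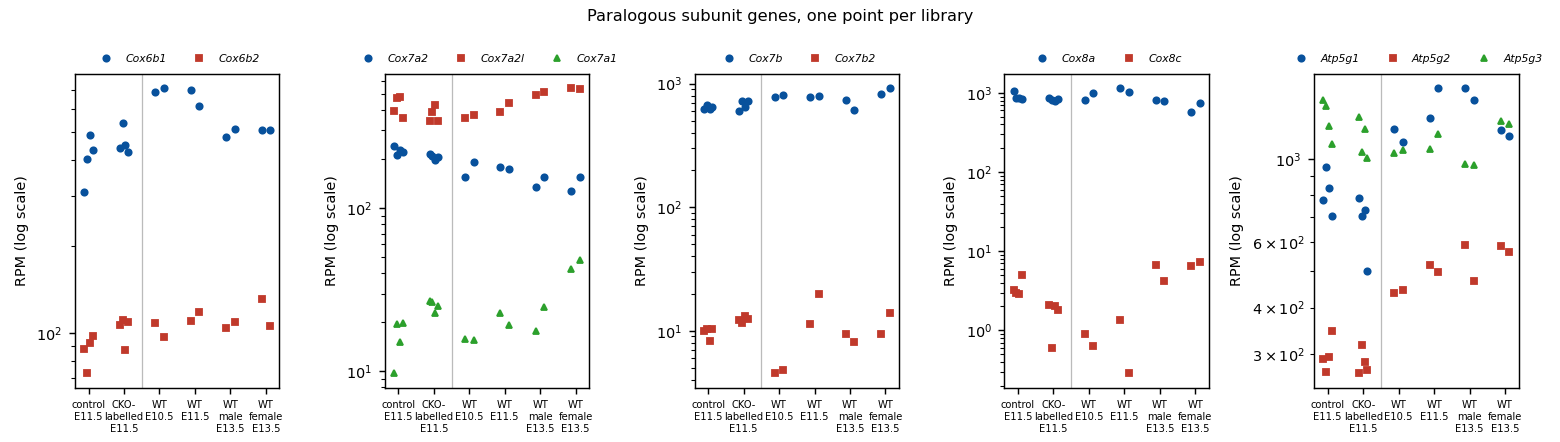
RPM of paralogous subunit genes on log axes, a point per library and a colour per gene, for the 6 groups, with a grey line between the separately normalized tables. Values are not divided by transcript length, so the heights of different genes are not compared. Cox7a1 is highest in the E13.5 females at 42.6 and 48.0 RPM, and Cox8c lies at 4.23 to 7.40 RPM in the E13.5 libraries and at or below 1.35 RPM in the earlier wild-type libraries.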

How the data were processed

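Sorted mouse germ cells were profiled by 3′ RNA sequencing with 11 PCR cycles, per the labels' protocols. Per the submitters' processing notes, cutadapt 1.3, TopHat 1.4.1, Cufflinks 2.2.0 and mm10 were used. The authors deposited RPM values for 26219 genes in 2 tables, normalized separately, and 92 spike-in rows of the wild-type table were left out. Between 99.6% and 99.8% of positive values in a library equalled a whole number of reads to within 0.05 reads, and depth was taken from the RPM that 1 read is worth. The rest did not, so no count test was used.

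The test was limma 3.58.1 on log2(RPM + 1) in R 4.3.3 (lmFit, eBayes with a mean-variance trend) over all genes with at least 5 RPM in 4 of 8 floxed or 2 of 8 wild-type libraries, 8 libraries per fit. P-values were Benjamini-Hochberg adjusted over all genes tested and called under 0.05. The members, gene lists and markers were chosen with earlier results of these data known. Named genes are called members with the smallest p, the extremes per complex, paralogues, complex II and Cyc1. The remaining complex III and X-linked genes were named after their values were seen. Near-identical copies were matches of at least 97% over 100 bases of a gene's last 300 transcript bases in GENCODE M21. On simulated data the fit was tested before use. Alternatives covered pseudocounts of 0.1 and 10, no filter or 20 RPM, median-ratio scaling, no trend, a replicate block and each library left out.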

Additional observations from a re-analysis of the deposited data

Results flagged for a closer look

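Within groups of 4 floxed libraries, 7 of 174 tested groups of a member had 1 library that stood far from the rest by Dixon's test, where chance gives about 1 in 20. These were Ndufaf2 at 105 RPM and Ndufa2 at 357 RPM in control replicate 4, Cox8a at 1071 RPM in control replicate 1, Ndufaf1 at 37.5 RPM, Ndufa3 at 73.6 RPM and Uqcrc1 at 87.9 RPM in CKO-labelled replicate 4, and Ndufab1 at 158 RPM in CKO-labelled replicate 3. CKO-labelled replicate 4 is also the library with the highest gonadal somatic marker sum, 250.2 RPM, and the part of that in these values was not tested.

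For 6 members the male and female libraries of E13.5 lay on opposite sides of both E11.5 libraries (6.90% of 87), as they did for 9.24% of the 10749 genes tested. Females were above and males below for Atp5g3 (female minus male 0.37 on the log2 scale), Cox5a (0.38), Ndufb11 (0.67) and Cox7b (0.37). Males were above and females below for Atp5b (-0.32) and Ndufa7 (-0.63). The choice of these members fixes the difference between the sexes, so the sex differences of these members are no support for the pattern, and the change of each sex from E11.5 was not tested separately. For Ndufb11, E11.5 replicate 1 and 2 were at 242 and 346 RPM, and E13.5 males were at 226 and 233 RPM.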

How the results depend on the processing

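The Ndufs8 call and the absence of other calls in the floxed comparison were the same in all 16 alternatives. From E10.5 to E11.5, the 5 higher calls became 0 without the level filter, 0 without a variance trend and 8 with the replicate block, and 0 to 7 with 1 library left out. From E11.5 to E13.5, 32 higher and 17 lower calls became 20 higher without the filter and 16 higher and 8 lower without a trend, and leaving out 1 library gave 21 to 35 higher and 13 to 17 lower. Between the sexes, 19 higher and 12 lower became 7 and 5 without a trend, and 13 to 21 and 7 to 13 with 1 library left out. Median-ratio scaling gave 22 and 22 from E11.5 to E13.5. For single genes named, 1100 values kept their side of the threshold, 204 called values lost it and 0 reversed. The cause was not tested. Replicate numbers do not pair the libraries by the labels. Same-numbered control and CKO-labelled libraries had deviations correlated at 0.24, 0.02, 0.25 and 0.18, with 3 of 4 matching their own number best, E10.5 and E11.5 at 0.01 and the sexes at -0.03. The block gave 1 higher call in the floxed comparison, 32 and 17 from E11.5 to E13.5, and 19 and 13 between the sexes. Genes under about 5 RPM, such as Cox8c and Sdhd, stand on few reads, and 23 of the 87 members have near-identical copies and 39 overlap another gene.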
